A study of Mus musculus with 6 samples.

Results

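Spleen dendritic cells of mice given regulatory T cells (Treg) were compared with spleen dendritic cells of un-injected mice, which are 2 of the 6 libraries of the series. Both libraries come from C57BL/6 mice that were germ-free and Rag KO, so that recipients and controls alike lacked T and B cells of their own. The Treg recipients received flow-sorted Treg a week before sampling. Another spleen library, from recipients of naive CD4 T cells sampled at the same time, served as another baseline, and the same Treg and un-injected states in peripheral lymph node gave a comparison that shares no library with the one in spleen. Flow-sorted dendritic cells were put into Trizol, and total RNA went through the Illumina TruSeq RNA kit. Each group had 1 library, so no value has an error, no difference could be tested, and "higher" and "lower" describe these libraries only. The sources used here do not state the gate, the number of mice behind a library, their age or their sex. Values were taken to be FPKM, which scales fragments to transcript length and library size, since the table does not name its unit. A ratio is the log2 of Treg over un-injected after 0.5 was added to each value, which understates the difference of low genes. Of 20681 autosomal genes, the 10139 that reached 1 FPKM in either library entered the comparison, and genes of chromosomes X and Y were left out. A gene was called different at 2-fold or more, a log2 ratio of at least 1 or at most -1.

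Dendritic cells take up antigen, present its peptides on MHC molecules and, once activated, display ligands such as CD80, CD86 and CD40 and secrete cytokines and chemokines that start T cell responses. Treg restrain that activation, in part through CTLA-4, which removes CD80 and CD86 from the dendritic cell surface. In the spleen the conventional dendritic cells fall into type 1 cells, which cross-present antigen to CD8 T cells, and type 2 cells, which mainly present to CD4 T cells.

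The sequences below are upstream regions of genes on which the results turn, taken from RefSeq on build GRCm38.p6. Each runs 5′ to 3′ along the gene's strand from 250 bases before the start site to 50 after it. Those of Ccl22, whose chemokine draws CCR4-bearing cells such as Treg, of Il6, which encodes an inflammatory cytokine, and of the chemokine genes Cxcl2 and Ccl9 are shown because all 4 genes were at least 2-fold lower in the Treg library and because they differ in what the window holds. Capitals mark matches to the kappaB motif, the sequence bound by NF-kappaB, on either strand.
Ccl22: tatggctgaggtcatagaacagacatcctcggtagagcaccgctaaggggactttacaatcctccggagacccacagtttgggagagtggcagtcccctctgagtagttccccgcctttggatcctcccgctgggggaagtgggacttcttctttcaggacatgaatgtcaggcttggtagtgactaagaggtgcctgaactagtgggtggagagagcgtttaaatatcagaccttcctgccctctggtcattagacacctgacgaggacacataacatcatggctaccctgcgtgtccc
Il6: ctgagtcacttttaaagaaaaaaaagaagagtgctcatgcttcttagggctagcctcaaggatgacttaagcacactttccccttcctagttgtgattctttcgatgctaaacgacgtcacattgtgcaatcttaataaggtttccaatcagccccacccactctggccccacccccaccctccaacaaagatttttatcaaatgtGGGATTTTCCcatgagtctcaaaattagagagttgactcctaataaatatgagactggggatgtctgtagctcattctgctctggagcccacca
Cxcl2: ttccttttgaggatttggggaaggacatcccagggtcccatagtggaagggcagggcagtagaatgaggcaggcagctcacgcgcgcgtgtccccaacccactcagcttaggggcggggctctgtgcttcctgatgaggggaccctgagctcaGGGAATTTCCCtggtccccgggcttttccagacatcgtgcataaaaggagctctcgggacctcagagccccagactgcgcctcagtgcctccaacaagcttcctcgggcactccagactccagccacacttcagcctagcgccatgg
Ccl9: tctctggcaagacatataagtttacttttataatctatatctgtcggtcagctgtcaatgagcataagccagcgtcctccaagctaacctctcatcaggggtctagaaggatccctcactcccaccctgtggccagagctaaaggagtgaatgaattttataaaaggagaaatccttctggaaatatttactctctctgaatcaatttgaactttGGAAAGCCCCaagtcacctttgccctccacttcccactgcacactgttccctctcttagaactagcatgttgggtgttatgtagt
The Ccl22 window lies at chr8:94745434-94745733 on the plus strand and holds no match, as does that of Ccl17, another lower gene, which is not printed. The Il6 window, at chr5:30012864-30013163 on the plus strand, has 1 match that begins at position -44 from the start site. The Cxcl2 window, at chr5:90903649-90903948 on the plus strand, has 2 matches that overlap, at -97 and -96. The Ccl9 window, at chr11:83578587-83578886 on the minus strand, has 1 match at -35. Of the 13 chemokine genes with a window, 5 (38.5%) held the motif, namely Ccl9, Cxcl1, Cxcl2, Cxcl3 and Cxcl10, against 9.55% of all 27025 genes with a window. Of these 5, Ccl9 and Cxcl2 were at least 2-fold lower with Treg, while Cxcl1, Cxcl3 and Cxcl10 were not among the genes called lower. In other gene lists the share ran from 0%, as in C-type lectin and endocytic receptors, to 76.9% in NF-kB subunits and feedback. Chemokine receptors had 36.4% and immediate early factors 30%, so the share is not particular to lower genes. The motif was found in 8.46% of all 32851 windows.

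The windows of Cdk1, the kinase that starts mitosis, Ube2c, a ubiquitin-conjugating enzyme of the anaphase-promoting complex, and Cenpf, a kinetochore protein, are shown because they are the 3 of the 7 cell cycle genes at least 2-fold lower whose window holds TTTGAA. The windows of the other lower genes, Birc5, Bub1, Ccnb1 and Rrm2, hold no match and are not printed. Here capitals mark TTTGAA on either strand, the core of the cell cycle homology region.
Cdk1: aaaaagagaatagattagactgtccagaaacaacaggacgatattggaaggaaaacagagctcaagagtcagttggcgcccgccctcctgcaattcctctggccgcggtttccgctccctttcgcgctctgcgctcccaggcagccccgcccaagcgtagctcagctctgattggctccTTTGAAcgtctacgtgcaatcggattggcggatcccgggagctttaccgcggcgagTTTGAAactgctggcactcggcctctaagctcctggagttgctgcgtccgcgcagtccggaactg
Ube2c: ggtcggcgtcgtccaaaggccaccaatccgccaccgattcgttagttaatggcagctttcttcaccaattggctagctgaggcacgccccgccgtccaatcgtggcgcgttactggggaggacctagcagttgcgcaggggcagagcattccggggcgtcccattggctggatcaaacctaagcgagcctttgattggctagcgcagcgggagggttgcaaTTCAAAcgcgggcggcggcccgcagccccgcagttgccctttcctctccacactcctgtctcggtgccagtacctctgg
Cenpf: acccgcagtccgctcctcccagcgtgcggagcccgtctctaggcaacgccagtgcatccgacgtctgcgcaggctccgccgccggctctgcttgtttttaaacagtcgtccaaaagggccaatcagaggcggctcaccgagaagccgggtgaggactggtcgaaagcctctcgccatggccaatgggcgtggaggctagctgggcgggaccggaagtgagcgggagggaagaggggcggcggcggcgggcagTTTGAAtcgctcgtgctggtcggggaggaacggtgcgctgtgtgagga
The Cdk1 window lies at chr10:69352863-69353162 on the minus strand and has 2 matches, at -71 and -15. The Ube2c window, at chr2:164769679-164769978 on the plus strand, has 1 at -29 and the Cenpf window, at chr1:189688037-189688336 on the minus strand, 1 just after the start site. Of 24 cell cycle genes with a window 11 (45.8%) held TTTGAA, against 20.2% of all genes with one, and it was found in 17.9% of all windows. The share is not particular to this list. Among other gene lists it ran from 0%, as in heat shock and chaperone genes, to 44.4% in C-type lectin and endocytic receptors. Langerin and migratory dendritic cell genes had 36.4% and T cell genes 35.3%. A match describes these letters and does not show that a factor binds there.

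The sum of FPKM was 861260 in the un-injected, 655903 in the naive T cell and 657560 in the Treg spleen library, and from the steps between low values 1 fragment per kilobase stood for about 0.461 FPKM without transfer and 0.543 FPKM with Treg. Dendritic cell markers were present in both. Itgax, the CD11c integrin chain, stood at 305 FPKM without transfer and 385 FPKM with Treg, Flt3, the receptor of their growth factor, at 173 FPKM without transfer and 221 FPKM with Treg, and Zbtb46, which encodes a nuclear factor specific to the conventional type among them, at 13.5 FPKM without transfer and 15.2 FPKM with Treg. The un-injected library stood apart from the other 2 spleen libraries in its levels of genes of other blood cells, above all neutrophils, and in a trend with transcript length. In 5 bins of equal gene number by transcript length, from the shortest to the longest, the median log2 ratio of Treg to un-injected was -0.45, -0.16, -0.02, 0.12 and 0.29. The ratio of naive T cell to un-injected library went from -0.39 to 0.21 over the same bins, whereas that of Treg to naive T cell went from -0.02 to 0.07. Genes called lower had a median longest transcript of 1862 bases and genes called higher 3657.5 bases, against 3007 bases over all genes. The ratio to the naive T cell library is given beside the results for these reasons.

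**Figure D1:**
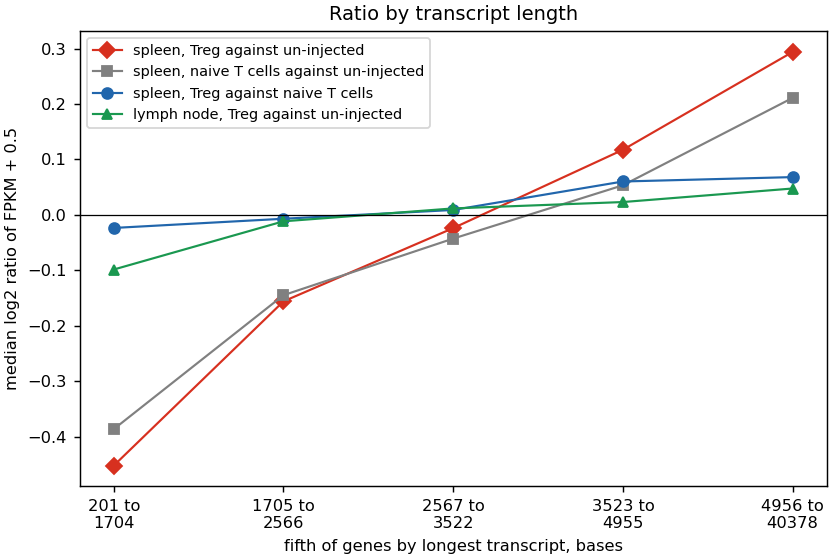
Median log2 ratio of FPKM + 0.5 (vertical axis) in 5 equal bins of genes ordered by longest transcript in bases (horizontal axis), for 4 pairs of libraries. The 2 lines that involve the un-injected spleen library climb, from -0.45 to 0.29 for Treg and from -0.39 to 0.21 for naive T cells, while Treg against naive T cells stays between -0.02 and 0.07 and lymph node Treg against un-injected between -0.10 and 0.05.

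Between the Treg and the un-injected spleen library 507 genes (5.0% of those compared) were at least 2-fold higher and 675 (6.66%) at least 2-fold lower. These shares are the background for the count of every gene list below. Most genes differed little, and 6799 (67.1%) lay within 1.5-fold. At 4-fold or more, 56 were higher and 139 lower, and among the 7414 genes that reached 5 FPKM 243 were at least 2-fold higher and 346 lower. With the libraries scaled to equal sums the median of all genes moved by 0.36 on the log2 scale, and 1268 genes were higher and 388 lower, so that 76.6% of called genes were higher in place of 42.9%. Against the naive T cell library 403 of 10029 genes (4.02%) were at least 2-fold higher with Treg and 457 (4.56%) lower. Of the 507 genes higher than in un-injected mice 119 (23.5%) were also at least 2-fold higher than with naive T cells, and of the 675 lower ones 170 (25.2%) were also lower. Both counts share the Treg library.

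**Figure D2:**
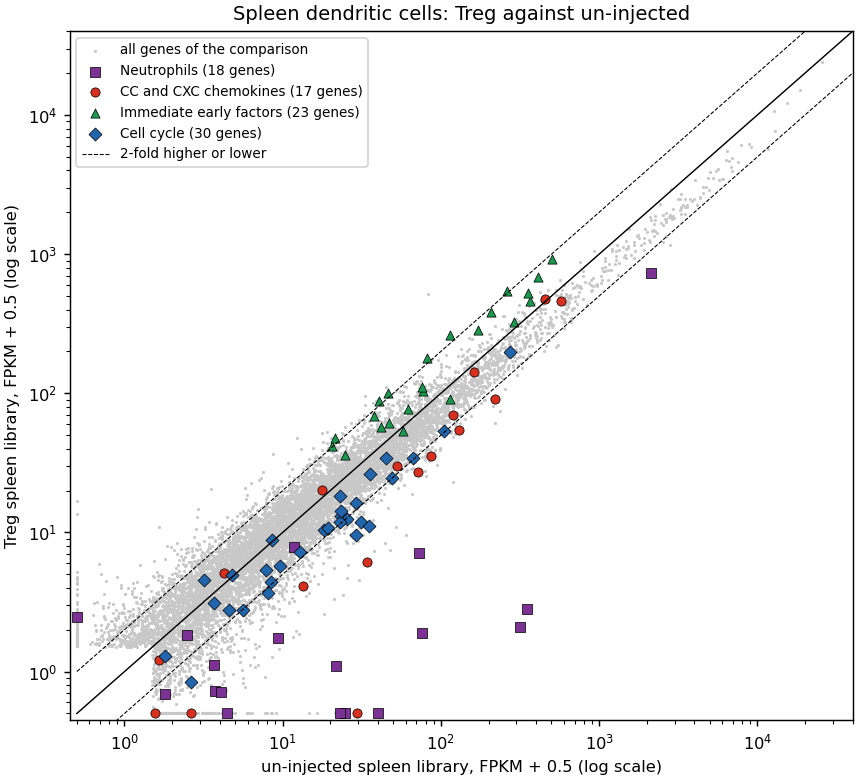
Level of each compared gene in the un-injected (horizontal) and the Treg spleen library (vertical), both as FPKM + 0.5 on log axes, with 4 gene lists in colour. The solid line is equality and the dashed lines are 2-fold. Neutrophil genes lie far below equality (median log2 ratio -2.83), chemokine and cell cycle genes mostly below it (-1.25 and -0.83) and immediate early factors above it (0.74).

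Genes of blood cells other than dendritic cells were lower with Treg. Of the 18 neutrophil genes past the filter 15 were at least 2-fold lower and 1, Stfa2, higher, with a median log2 ratio of -2.83 that became -5.32 over genes at 5 FPKM or more. S100a8 and S100a9, which encode the subunits of calprotectin, the main cytosolic protein of neutrophils, were at 318 and 351 FPKM without transfer and at 1.59 and 2.32 FPKM with Treg. Ngp, a neutrophil granule protein, was at 75.5 FPKM without transfer and 1.4 FPKM with Treg. Ly6g, the surface marker used to sort neutrophils, was listed at 0 in both.

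Inflammatory monocyte genes had a median of -1.53, with 10 of 17 at least 2-fold lower and 0 higher. Ly6c2, a surface protein of these cells, was at 59.9 FPKM without transfer and 9.05 FPKM with Treg, and Lyz2, the lysozyme of myeloid cells, at 2116 FPKM without transfer and 731 FPKM with Treg. Csf1r, the receptor for colony-stimulating factor 1, differed less, at 168 FPKM without transfer and 117 FPKM with Treg. Of 17 macrophage genes 10 were at least 2-fold lower, with a median of -1.12. Cd5l, a secreted protein of tissue macrophages, stood at 23.6 FPKM without transfer and 3.07 FPKM with Treg, and Hmox1, the haem oxygenase that is high in red pulp macrophages, at 214 FPKM without transfer and 79.9 FPKM with Treg. Adgre1, which encodes the macrophage marker F4/80, was close in both libraries at 80.8 and 73.1 FPKM.

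Among 15 genes of natural killer and innate lymphoid cells 8 were at least 2-fold lower. Their median of -1.56 rested on genes near or at 0 with Treg, and over genes at 1 FPKM or more in both libraries it was -0.33. Gzma, a granzyme of cytotoxic granules, and Nkg7, a granule membrane protein, reached 8.53 and 7.25 FPKM without transfer and were listed at 0 with Treg. Klrd1 and Klrk1, receptors that natural killer cells share with some dendritic cells, differed little, with ratios of -0.21 and -0.34. Of 6 genes of mast cells, basophils and eosinophils 5 were at least 2-fold lower, their list median being -1.67, or -0.90 over genes at 1 FPKM or more in both libraries. These medians rest on very few genes, since 10 of the 14 in the table were listed at 0 with Treg. Only 2 reached 1 FPKM with Treg or with naive T cells. The most abundant of the 5 was Prg2, an eosinophil granule protein, at 3.65 FPKM without transfer and 1.26 FPKM with Treg.

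The naive T cell library was low in the same lists. Against it the medians were 0.42 for neutrophils, 0.54 for monocytes, 0.19 for macrophages. The natural killer and innate lymphoid list had -0.43. Summed over the list, neutrophil genes reached 3077 FPKM without transfer, 537 FPKM with naive T cells and 757 FPKM with Treg, and macrophage genes 1624, 779 and 898 FPKM in the same order. Of the 10 neutrophil genes compared with naive T cells 7 were above 0 and 3 below. S100a8 and S100a9 were among the 3, at 9.33 and 12.8 FPKM with naive T cells and 1.59 and 2.32 FPKM with Treg. Their ratios to naive T cells were -2.23 and -2.24, and the neutrophil sum with Treg thus came almost wholly from other genes of the list. Fewer cells of a type and less RNA per cell cannot be told apart in bulk samples. The part of these cells in the results that follow was not tested. Values in the paragraphs below are given in the order un-injected, naive T cell and Treg.

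The filter kept 11 of 23 T cell genes. The defining genes of the T cell receptor complex, Cd3e and Cd3g, were listed at 0 in all 3 spleen libraries, and Cd3d reached 0.43 FPKM in the naive T cell library and was listed at 0 with Treg. Lck, the kinase that starts T cell receptor signals, was at 3.86, 0 and 0.238 FPKM. Cd4, which type 2 spleen dendritic cells also carry, was at 19.6, 46.9 and 47.6 FPKM and thus 2.39-fold higher with Treg than in un-injected mice. Summed over the list, T cell genes reached 81.0, 115 and 96.4 FPKM, and these sums include Cd4. The list median was -0.33 to un-injected, with 7 of 11 genes below 0, 2 at least 2-fold lower and 1, Cd4, higher. Of 12 genes of red blood cells and platelets 6 were at least 2-fold lower with Treg than in un-injected mice and 1 higher, with a median of -1.05, but against naive T cells the median was 1.01. Hbb-bs, the main beta globin of this strain, stood at 394, 76.8 and 263 FPKM, and reads of the near-identical globin genes may be split between them.

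**Figure D3:**
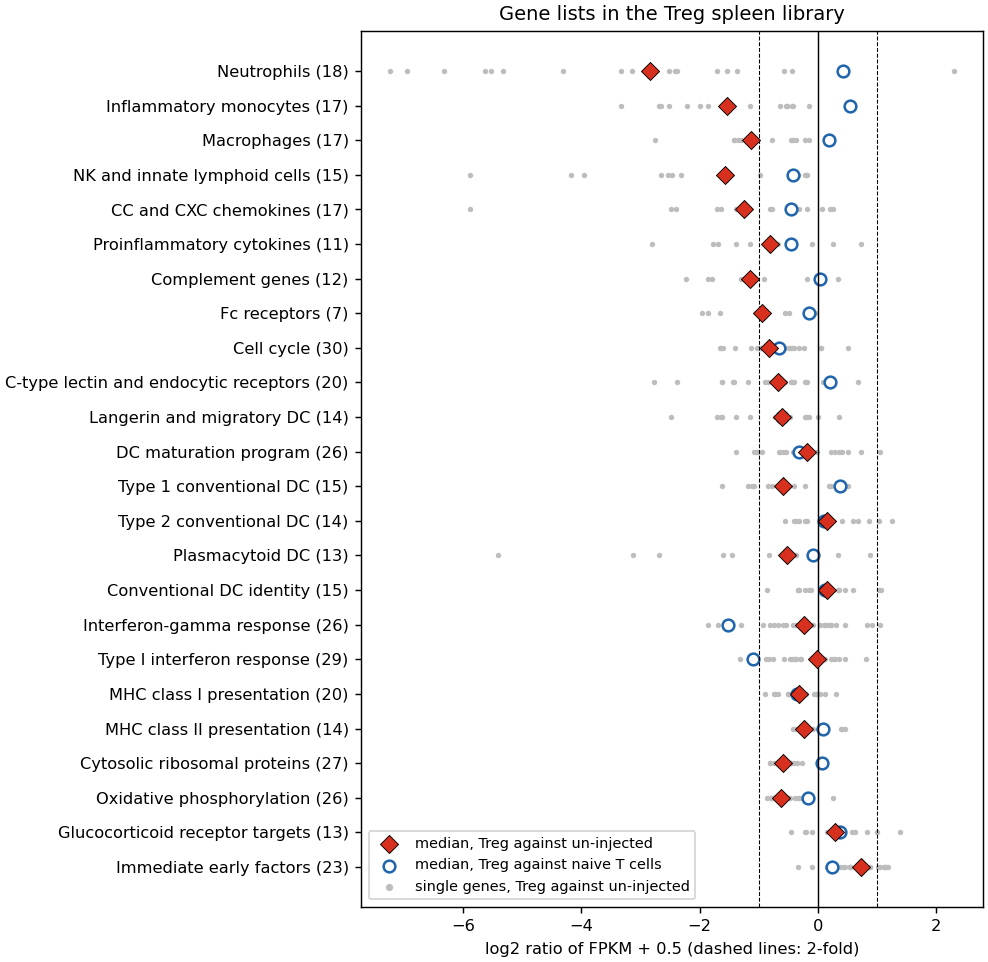
Log2 ratios by gene list in the Treg spleen library. Grey dots are single genes against un-injected, red diamonds the list median against un-injected and open blue circles the median against naive T cells, and the number of genes compared is in brackets. Neutrophil, monocyte and macrophage lists lie at -2.83, -1.53 and -1.12 against un-injected but above 0 against naive T cells, cell cycle genes lie below 0 against both (-0.83 and -0.66), and the interferon lists lie near 0 against un-injected and at -1.52 and -1.09 against naive T cells.

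Chemokine genes were lower with Treg than in un-injected mice. Of 17 past the filter 9 were at least 2-fold lower and 0 higher, with a median log2 ratio of -1.25 beside -0.04 over all genes, of which 6.66% were lower. The 9 were Ccl6, Ccl8, Ccl9, Ccl12, Ccl17, Ccl22, Cxcl2, Cxcl9 and Xcl1. Against naive T cells the median of 14 genes was -0.45, with 5 lower and 1 higher. Ccl22, the Treg attractant whose upstream window is shown above and whose gene lies on chromosome 8 from 94745589 to 94751699 (mm10), was at 33.7, 20.6 and 5.60 FPKM. It was lowest with Treg, with ratios of -2.49 to un-injected and -1.79 to naive T cells, that is 5.60-fold and 3.47-fold. Ccl17, the other ligand of CCR4, was at 12.9, 4.89 and 3.61 FPKM. Unlike Ccl22 it was nearly as low with naive T cells, at a ratio of -0.39 to that library.

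Other chemokines of activated myeloid cells varied in their order. Cxcl2, which recruits neutrophils, at 70.9, 17.7 and 26.9 FPKM, and Ccl9 and Ccl6, which act on myeloid cells through CCR1, at 129, 36 and 54.1 FPKM and 218, 64.2 and 90.8 FPKM, were lower with Treg than in un-injected mice and a little higher than with naive T cells. Cxcl9 and Cxcl10, interferon-induced ligands of CXCR3 that draw effector T cells, were lowest with Treg and highest with naive T cells, at 85.5, 148 and 34.6 FPKM and 52.1, 153 and 29.5 FPKM. Ccl3 and Ccl4, inflammatory chemokines, were near the un-injected level with Treg, at 160.3, 343 and 141 FPKM and 572, 768 and 458 FPKM. Ccl5, which recruits T cells and monocytes, was level throughout at 452, 443 and 476 FPKM. Xcl1, which natural killer cells secrete to attract type 1 dendritic cells, was at 29.1 FPKM in the un-injected library and listed at 0 with Treg, beside the lower natural killer genes given above. Of 10 chemokine receptor genes 1 was at least 2-fold lower, Ccr3, the eotaxin receptor, at 6.05, 1.93 and 2.28 FPKM. Ccr7, which guides dendritic cells into T cell zones, was at 356, 508 and 312 FPKM.

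Of 11 proinflammatory cytokine genes 5 were at least 2-fold lower with Treg than in un-injected mice and 0 higher, with a median of -0.80, and against naive T cells 3 were lower and 0 higher, with a median of -0.46. Il6, on chromosome 5 from 30013113 to 30019981, was at 17.8, 4.54 and 2.11 FPKM, so that its level was 6.99-fold lower with Treg than without transfer. Il12b, the shared subunit of interleukins 12 and 23 that direct helper T cells, was at 67.7, 35.3 and 25.5 FPKM. Both were lowest with Treg, with ratios of -0.95 and -0.46 to naive T cells. Il15, which sustains natural killer and memory T cells, and Tnf showed another order, at 18, 25.5 and 7.87 FPKM and 68.8, 98.0 and 43.1 FPKM. Both were highest with naive T cells and lowest with Treg. Il1b, the most abundant cytokine gene of the list, was at 2521, 1917 and 1912 FPKM, a ratio of -0.40, and Il18 was at 33.8, 30.5 and 31.6 FPKM. Il1a, at 11.0, 2.20 and 2.87 FPKM, was low with either transfer. Ebi3, a subunit of interleukins 27 and 35, was at 28, 21.7 and 33.8 FPKM.

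The maturation program, the genes that go up when dendritic cells mature, differed less as a list. Its 26 genes had a median of -0.18, which became 0.17 with equal library sums, and 4 were at least 2-fold lower and 1 higher. Cd40, the receptor for T cell help, on chromosome 2 from 165055626 to 165072948, was at 91.3, 99.3 and 45.1 FPKM. It was thus 2.02-fold lower than in un-injected mice and 2.19-fold lower than with naive T cells. The ratio to un-injected, -1.01, was just past the cut-off, and equal library sums moved the median of all genes by 0.36. Fscn1, the actin-bundling protein fascin of mature dendritic cells, was at 66.4, 93.8 and 42.4 FPKM. The others of the 4 were Il12b, Laptm4b, a lysosomal membrane protein, and Cst3, the protease inhibitor cystatin C that is abundant in dendritic cells, at 11698, 5192 and 5663 FPKM. Cd83, a surface marker of mature dendritic cells, was at 1201, 1077 and 1086 FPKM, and Traf1, a signalling adaptor downstream of CD40, at 155, 236 and 140.1 FPKM.

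Ligands of the B7 family did not differ as a group. Of 11 genes 1 was at least 2-fold higher and 0 lower, with a median of -0.02 that became 0.36 with equal library sums. Cd80 was at 88.9, 108 and 87.7 FPKM and Cd86 at 256, 205 and 175 FPKM, ratios of -0.02 and -0.55 for the CD28 and CTLA-4 ligands. Their RNA was thus within 1.5-fold of un-injected mice, and the surface protein was not measured here. Cd274, which encodes the inhibitory ligand PD-L1, was the gene that was higher, at 18.5, 86.2 and 38.7 FPKM. It lay between the other spleen libraries, 2.07-fold above un-injected and 2.21-fold below naive T cells. Icosl, the ICOS ligand, was at 43.9, 58.6 and 62.8 FPKM and Havcr2, which encodes TIM-3, at 108, 169 and 189 FPKM. Tnfsf4, which encodes OX40 ligand, was low in all at 2.01, 3.85 and 0.921 FPKM, and Tnfsf13, which encodes the B cell factor APRIL, was at 11.7 FPKM in the un-injected library, listed at 0 in the naive T cell library and at 1.46 FPKM with Treg. Pdcd1, the receptor PD-1, was at 6.28, 4.07 and 0.975 FPKM. Of 16 genes of NF-kB subunits and their feedback inhibitors 1 was at least 2-fold lower, Tnip3, and 0 higher, with a median of 0.19. Rel, a subunit that dendritic cells use for cytokine genes, was at 74.0, 136 and 122 FPKM and Nfkbia, its inhibitor, at 233, 189.8 and 191 FPKM.

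**Figure D4:**
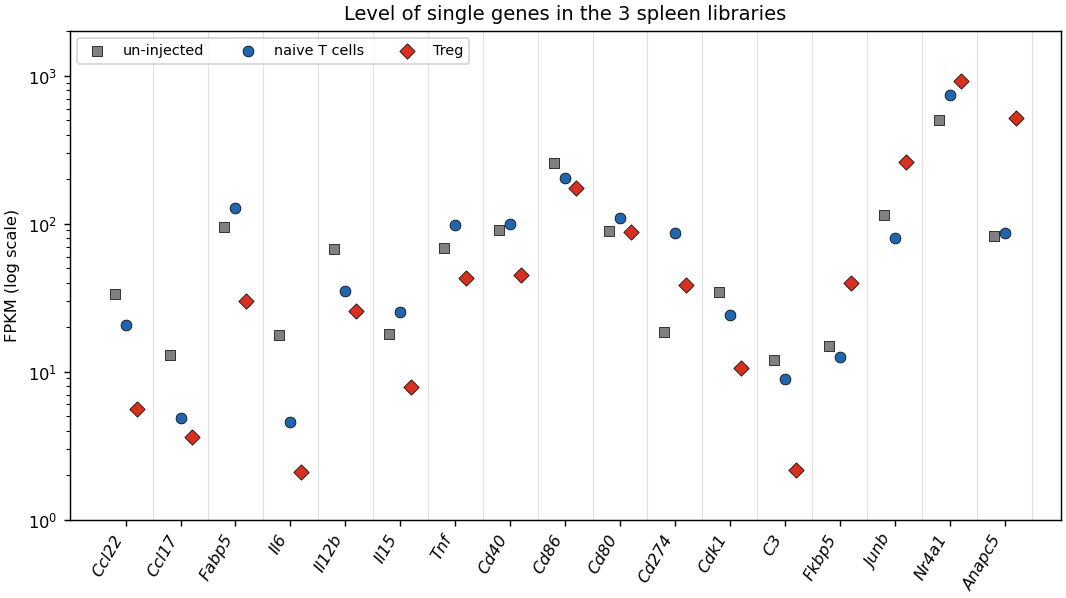
FPKM on a log axis of 17 genes in the un-injected (grey squares), naive T cell (blue circles) and Treg (red diamonds) spleen libraries, 1 library each. Ccl22, Fabp5, Il15, Cd40, Cdk1 and C3 are lowest with Treg, Fkbp5, Junb and Anapc5 highest, while Cd80 and Cd86 are close in all 3 and Cd274 with Treg (38.7 FPKM) lies between un-injected (18.5 FPKM) and naive T cells (86.2 FPKM).

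Most genes that mark langerin-positive and migratory dendritic cells were lower against both spleen baselines, with 12 of 14 below 0 in each case. Of 14 genes 6 were at least 2-fold lower than in un-injected mice and 0 higher, with medians of -0.60 to un-injected and -0.61 to naive T cells. Against naive T cells 3 were at least 2-fold lower and 0 higher. With equal library sums the median to un-injected was -0.23. The lowest gene of the list was Ccl22, which is also counted among the chemokines. Fabp5, a fatty acid-binding protein, was at 94.6, 128 and 30.2 FPKM, and so 3.09-fold and 4.17-fold lower. Cd207, the lectin langerin, which some type 1 spleen cells carry, was at 45.6, 8.06 and 14.5 FPKM and hence low with either transfer. With Treg it was above the naive T cell level, at a ratio of 0.81. Ly75, the endocytic receptor DEC-205, was at 12.0, 13.8 and 10.4 FPKM.

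Lists of type 1 and type 2 dendritic cell genes are given side by side, and a difference between them was not tested. Of 15 type 1 genes 4 were at least 2-fold lower than in un-injected mice and 0 higher (median -0.58), but against naive T cells the median was 0.38, with 14 of 15 genes above 0. Clec9a, the receptor for dead cells on type 1 cells, was at 344, 109.9 and 229.8 FPKM, and Xcr1, the receptor for XCL1, at 46.2, 24.3 and 34.8 FPKM. In both cases the Treg library lay between the other 2. Cd8a, the CD8 chain that marks lymphoid-resident type 1 cells, was at 132, 56.7 and 60.6 FPKM. Batf3 and Irf8, the transcription factors that form type 1 cells, were nearly level at 48.9, 43.0 and 55.9 FPKM and 193, 141 and 167 FPKM. Of 14 type 2 genes 2 were at least 2-fold higher and 0 lower, with medians of 0.15 to un-injected and 0.11 to naive T cells. They were Cd4 and Irf4, a transcription factor of these cells, which was at 18.9, 45.8 and 39.4 FPKM. Klf4, another of their factors, was at 37.1, 61.3 and 68.6 FPKM and Sirpa, the inhibitory receptor that separates them from type 1 cells, at 85.6, 123 and 114 FPKM. Among 15 genes of conventional dendritic cell identity 2 were higher, Irf4 and Bcl11a. Kit was at 46.6, 75.1 and 70.8 FPKM. Of 13 plasmacytoid genes 5 were at least 2-fold lower, among them Siglech, an inhibitory lectin of these cells, at 13.7, 0.248 and 4.19 FPKM. Tcf4, their defining transcription factor, was at 8.87, 14.7 and 16.8 FPKM.

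Interferon response genes were near the un-injected level with Treg and well below the naive T cell level. Of 26 interferon-gamma response genes 3 were at least 2-fold lower than in un-injected mice and 1 higher, with a median of -0.23 that became 0.12 with equal library sums. Against naive T cells 21 of 27 were at least 2-fold lower and 0 higher, with a median of -1.52. Gbp2, a guanylate-binding protein of cell-autonomous defence, was at 14.7, 80.2 and 9.69 FPKM, and Irf1, a transcription factor that interferon induces, at 48.9, 124 and 52.6 FPKM. The Treg library was the lowest of the 3 in Gbp2 and close to the un-injected library in Irf1. The 29 type I interferon genes had a median of -0.02 to un-injected, 0.34 with equal library sums, and 1 was at least 2-fold lower. Against naive T cells their median was -1.09, and 16 were lower. Isg15, the ubiquitin-like modifier, was at 95.0, 238 and 71.8 FPKM, and Rsad2, the antiviral enzyme viperin, at 7.43, 24.6 and 7.89 FPKM. The 1 gene lower than in un-injected mice was Ifi27l2a, at 534, 411 and 214 FPKM.

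Immediate early genes, transcription factors and phosphatases that cells switch on within minutes of a stimulus, were higher with Treg than in un-injected mice. Of 23 genes 21 had a ratio above 0, 7 were at least 2-fold higher and 0 lower, with a median of 0.74. The 7 were Egr1, Egr3, Fos, Fosl2, Jun, Junb and Nr4a2. Fos was at 260.2, 431 and 542 FPKM, Egr1 at 40.1, 87.8 and 88.1 FPKM and Nr4a1, an orphan nuclear receptor, at 501, 739.5 and 926 FPKM. The naive T cell library lay near the Treg library, and against it the median was 0.25 with 1 gene at least 2-fold higher. That gene was Junb, an AP-1 subunit, at 114, 80.5 and 262 FPKM.

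Of 13 genes that glucocorticoids induce through their receptor 2 were at least 2-fold higher with Treg than in un-injected mice and 0 lower, with a median of 0.29. Fkbp5, a chaperone partner that dampens the glucocorticoid receptor, on chromosome 17 from 28399094 to 28517524, was at 14.9, 12.5 and 39.9 FPKM. It was 2.62-fold above un-injected and 3.11-fold above naive T cells. Per1, a clock gene that glucocorticoids also induce, was at 87.6, 149 and 176 FPKM. Tsc22d3 is a gene of chromosome X and was left out. Sgk1, a kinase, and Mt1, a metallothionein, were close in all 3 libraries, at 76.4, 54.9 and 71.4 FPKM and 299, 229 and 340.4 FPKM, and Nr3c1, the receptor itself, was at 10.4, 9.98 and 8.91 FPKM.

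Cell cycle genes were lower with Treg than in either other spleen library. Of 30 genes 27 had a ratio below 0, and 7 were at least 2-fold lower than in un-injected mice, against 6.66% of all genes, and 0 higher. The median was -0.83, and -0.47 with equal library sums. Against naive T cells 24 of 28 were below 0, 3 were at least 2-fold lower and 1 higher, with a median of -0.66. Cdk1, on chromosome 10 from 69336634 to 69352938, was at 34.6, 24.2 and 10.6 FPKM, with ratios of -1.66 and -1.15. Birc5, the mitotic regulator survivin, was at 30.8, 25.2 and 11.4 FPKM, and Ube2c at 28.6, 15.9 and 9.06 FPKM. Of the genes for DNA replication, Mcm5, a subunit of the replicative helicase, was at 66.5, 66.0 and 34.0 FPKM, and Rrm2, a subunit of ribonucleotide reductase, at 24.9, 18 and 12.1 FPKM. Top2a, the topoisomerase of dividing cells, was at 22.8, 22.1 and 13.9 FPKM. In each of these 6 genes the Treg library was the lowest of the 3. Mki67, which encodes Ki-67, and Aurkb, a mitotic kinase, were exceptions at 4.29, 7.21 and 4.48 FPKM and 8.07, 7.45 and 8.37 FPKM.

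Most complement, Fc receptor and C-type lectin genes were lower with Treg than in un-injected mice. Against naive T cells the medians of these lists were 0.045, -0.15 and 0.21 in that order. Of 12 complement genes 8 were at least 2-fold lower and 0 higher (median -1.15). C1qa, C1qb and C1qc, the chains of C1q, had ratios of -1.15, -1.30 and -1.12 but lay near the naive T cell level. C3, the central complement component, was different, at 12.0, 8.93 and 2.17 FPKM, and so 3.53-fold lower than with naive T cells too. Of 7 Fc receptor genes 3 were at least 2-fold lower and 0 higher. Fcgr1, the high-affinity receptor for IgG, was at 8.79, 7.97 and 2.08 FPKM, and Fcgr3 at 80.0, 27.5 and 25.1 FPKM. Fcgr2b, the inhibitory receptor of dendritic cells, was at 186, 92.4 and 179 FPKM. Of 20 C-type lectin and endocytic receptors 7 were at least 2-fold lower and 0 higher (median -0.67), among them Clec4e, the Mincle receptor for mycobacterial glycolipid, at 43.6, 6.05 and 7.93 FPKM, and Mrc1, the mannose receptor, at 14.7, 5.05 and 5.15 FPKM. Cd209a, a lectin of type 2 cells, was at 308, 215 and 264 FPKM. Of 19 Toll-like receptors and adaptors 1 was at least 2-fold higher, Tlr5, the flagellin receptor, at 0.693, 3.83 and 3.92 FPKM, and 1 lower, Cd14, at 206, 61.5 and 92.6 FPKM.

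Antigen presentation genes lay within 2-fold of the un-injected level, with 0 of 14 MHC class II genes and 0 of 20 MHC class I genes past it. Their medians of -0.23 and -0.32 became 0.15 and 0.06 with equal library sums. H2-Ab1, the class II beta chain of this strain, was at 15411, 11163 and 12168 FPKM, and Cd74, the invariant chain, at 25602, 22340.1 and 24144 FPKM. Psmb8 and Psmb9, subunits of the immunoproteasome, were at 573, 460 and 359 FPKM and 404, 360 and 242 FPKM. Among 18 genes of cathepsins and lysosomes 2 were at least 2-fold lower, Cst3 and the protease gene Ctsd, and 0 higher. Of 27 ribosomal protein genes all were below 0, with 0 at 2-fold, a median of -0.59 and a range of -0.81 to -0.27. Oxidative phosphorylation genes had 25 of 26 below 0 and a median of -0.63. Against naive T cells the medians were 0.07 and -0.16, and with the trend over transcript length subtracted they were -0.07 and -0.12. Glycolysis genes had a median of -0.47, with 1 of 20 at least 2-fold lower, Slc16a3, a lactate carrier.

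Of 18 genes linked to tolerance 5 were at least 2-fold lower with Treg than in un-injected mice and 2 higher, with a median of -0.36. Il10, which encodes an inhibitory cytokine, was at 4.15, 0.906 and 0.924 FPKM, and Axl, a receptor for dying cells that restrains inflammation, at 29.1, 15.9 and 12.4 FPKM. Both were low with either transfer. The 2 higher genes were Cd274 and Ahr, the aryl hydrocarbon receptor, at 35.6, 63.4 and 72.0 FPKM. Tgfb1, the main isoform of transforming growth factor beta in immune cells, was level at 117, 89.7 and 116 FPKM. Socs3, a feedback inhibitor of cytokine receptors, was at 34.2, 31.3 and 20.4 FPKM.

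The 15 genes with the highest ratios of Treg to un-injected, among genes above 0 in both libraries and at 5 FPKM or more in either, are named here. Kmt2d, a histone methyltransferase with a longest transcript of 19823 bases, was at 3.02, 19.9 and 20.1 FPKM. Smarca2, an ATPase of chromatin remodelling complexes, was at 8.22, 22.6 and 36.4 FPKM, Chd3, a subunit of the NuRD remodelling complex, at 11.9, 27.2 and 47.5 FPKM and Phf12 at 5.76, 15.1 and 22.3 FPKM. The naive T cell library was close to the Treg library in Kmt2d and lay between the other libraries in Smarca2, Chd3 and Phf12. These 4 genes have longest transcripts of 4410 to 19823 bases, and with the trend over transcript length subtracted their ratios of 2.55, 2.08, 1.96 and 1.86 were 2.18, 1.88, 1.63 and 1.72. Fbxw7, a substrate receptor for protein degradation, was at 1.56, 5.48 and 6.97 FPKM, and Dtx1, a regulator of Notch signals, at 5.26, 13.3 and 20.3 FPKM. Gabbr1, a subunit of the GABA type B receptor, was at 2.40, 7.45 and 14.2 FPKM. The others were Zfp433, Prr14l, Anapc5, Serpini1, Gtf2ird2, Hic1, Mapk11 and Plekhg2, with ratios from 1.90 to 3.11. The 15 lowest included S100a8, S100a9, Ngp, Lcn2, Galnt2, whose value with Treg was a vanishing estimate, Chil3, Ccl24, Il6, Timp2, Clec4d, Cd5l, Fcor, F10 and Cox6a2, from -7.25 to -2.69. Ccl24, an eotaxin of macrophages, was at 7.17, 1.24 and 0.416 FPKM, and F10, coagulation factor X, at 11.1, 1.73 and 1.26 FPKM.

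Ranked by the smaller of the ratios to un-injected and to naive T cells, Anapc5 stood furthest above both. This subunit of the anaphase-promoting complex, on chromosome 5 from 122787458 to 122821339, was at 82.6, 86.6 and 521 FPKM, a 6.28-fold and 5.99-fold difference. In the un-injected, naive T cell and Treg lymph node libraries it was at 37.5, 65.5 and 55.1 FPKM, so the Treg spleen library was the highest of the 6. Prr14l was at 1.14, 1.53 and 10.4 FPKM, and Usp30, a deubiquitinase of mitochondria, at 2.16, 2.0 and 7.21 FPKM. Cbfa2t3, a transcriptional co-repressor of blood cells, was at 12.6, 14.5 and 39.4 FPKM, and Cerkl at 6.56, 8.10 and 23.3 FPKM. Fkbp5, Serpini1, Zfp433, Map1s and Rsc1a1 complete the 10, and Rsc1a1 was at 0.000137 FPKM in the naive T cell library.

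Furthest below both were Coa6, S100a9, S100a8, C3, Ccl22, Cenpw, Mapk13, Fcgr1, Ccdc127 and Pdcd1. Coa6, an assembly factor of mitochondrial complex IV, was at 6.13, 6.69 and 0.782 FPKM. Its longest transcript has 747 bases and 1 fragment per kilobase stood for about 0.543 FPKM with Treg, so that value rests on few fragments. Mapk13, the delta isoform of the p38 kinases, was at 10.5, 9.97 and 2.68 FPKM, and Cenpw, a centromere protein, at 5.07, 2.87 and 0.518 FPKM. Coa6 and Mapk13 were close between the un-injected and naive T cell libraries. The dendritic cell ligand Ccl22, the complement gene C3 and the receptor genes Fcgr1 and Pdcd1 were thus at their lowest with Treg.

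In lymph node, where 1213 of 10635 genes (11.4%) were at least 2-fold higher with Treg than in un-injected mice and 984 (9.25%) lower, the 2 tissues overlapped in part. Over the 9644 genes compared in both, the background was 11.5% higher and 5.99% lower for lymph node against 4.34% and 5.25% for spleen. Among them 75 were higher in both, 17.9% of the spleen and 6.78% of the lymph node list, and 112 were lower in both, 22.1% and 19.4%. Another 90 were lower in spleen and higher in lymph node, 17.8% and 8.13%, and 28 the reverse, 6.68% and 4.84%. Among genes that differed the same way, Ccl22 was at 2051 and 523 FPKM in lymph node without transfer and with Treg, in that order, Ccl17 at 438 and 93.4 FPKM and Ccl24 at 16.5 and 3.15 FPKM. Il12b was at 255 and 85.7 FPKM, Cd40 at 449.9 and 197 FPKM and Il15 at 181 and 87.3 FPKM. All 6 were at least 2-fold lower with Treg in both tissues with the values as deposited, Cd40 in spleen only just. Fkbp5 was at 9.23 and 28.5 FPKM and thus higher in both, like Srgap1, Stra6l, Prr3, Rsc1a1, Clcf1, Myc and Cd4. Myc, the growth-promoting transcription factor, was at 5.16 FPKM without transfer and 12.9 FPKM with Treg in spleen and at 0.664 and 5.92 FPKM in lymph node. Idh1, the cytosolic isocitrate dehydrogenase, was at 18.7 FPKM without transfer and 6.15 FPKM with Treg in spleen and at 118 and 42.6 FPKM in lymph node, and Mras, Pdlim4, Umad1 and Insl6 were also lower in both.

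The chemokine list had medians of -1.25 in spleen and -0.72 in lymph node, the cytokine list -0.80 and -0.90 and the langerin and migratory list -0.60 and -0.98. The maturation program had -0.18 in spleen, 0.17 with equal library sums, and -0.99 in lymph node. Other lists went opposite ways, with cell cycle genes at -0.83 and 0.84, inflammatory monocytes at -1.53 and 1.38 and Fc receptors at -0.94 and 0.97. Whether the tissues differ was not tested, since each has 1 library a group. In lymph node Ccr7, for example, was at 5829 FPKM without transfer and 2427 FPKM with Treg.

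**Figure D5:**
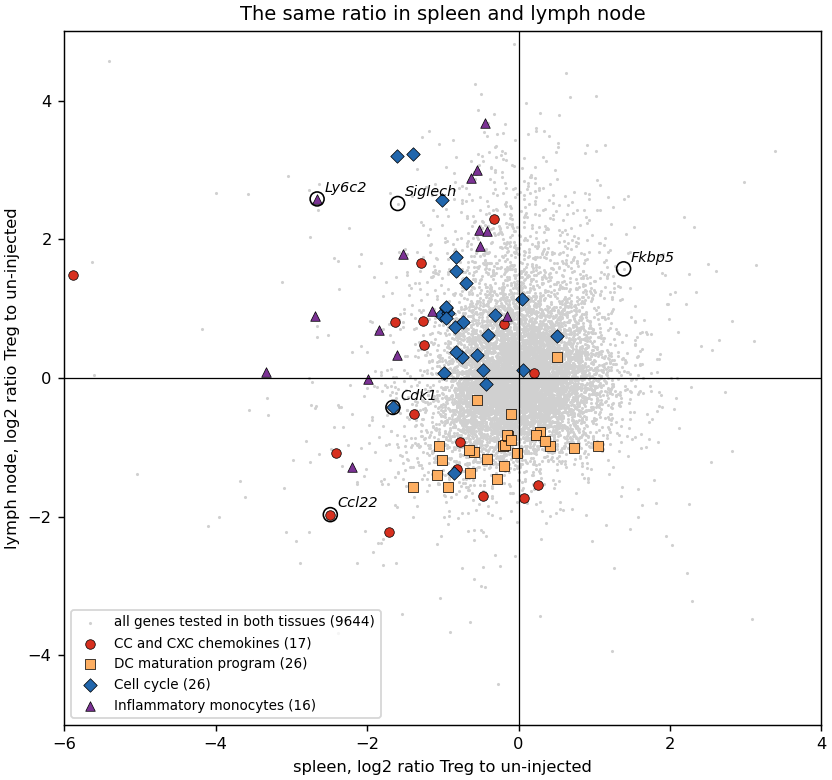
Log2 ratio of Treg to un-injected in spleen (horizontal) and lymph node (vertical) for 9644 genes compared in both tissues, with 4 lists in colour, 5 genes ringed and 6 genes beyond the axes. Maturation genes lie mostly below 0 in lymph node, chemokine genes mostly left of 0, with Ccl22 at -2.49 and -1.97, cell cycle and monocyte genes mostly at the upper left, and Fkbp5 at the upper right at 1.39 and 1.57.

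The authors' deposited table marks 12 loci as different between the un-injected and the Treg spleen library, 10 of them on autosomes. Of these 9 are listed at 0 with Treg, namely Camp, Clu, Gzma, Ltf, Ly6d, Nkg7, Retnla, Retnlg and Xcl1, and 1, Smarca2, is higher. Camp, an antimicrobial peptide of neutrophil granules, is listed at 39.7 FPKM and Ly6d, a marker of lymphoid and plasmacytoid precursors, at 20.8 FPKM in the un-injected library of the authors' deposited table. In all 138 genes called lower are listed at 0 with Treg and 64 called higher are listed at 0 in the un-injected library. No fold is given for them, because 11 of 13 mitochondrial lines are at 0 in every library of the table and a 0 can be a missing estimate.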

How the data were processed

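RNA of flow-sorted dendritic cells was sequenced in 6 libraries, 1 for each tissue and transfer. The table the authors deposited holds 1 value per gene and library, read here as FPKM from its values, since its header does not name the unit. The submitters' processing notes name RSEM, edgeR 3.16.5, mm10 and GRCm38.p4 without their roles. The sources used here do not state whether counting used strand.

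From these values 38 symbols with several lines were summed, and lines of chromosomes X (945), Y (183) and M (13) or without a locus (92) were left out. Log2 ratios of FPKM + 0.5 were taken for genes at 1 FPKM or more in either library, with Python 3.11.15, pandas 2.3.3 and numpy 2.4.6, and plotted with matplotlib 3.10.9. The calculation was tested on simulated data. No test was possible with 1 library a group. Depth was read only from the steps between low values, and counting error could not be given.

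Genes were named by rank, for genes above 0 in both libraries and at 5 FPKM or more in either: by ratio to un-injected (15 each way), by distance from both other spleen libraries (10 each way), by the same direction in lymph node (8 each way) and by the opposite direction (5 each way). Other named genes belong to 44 lists of 734 genes, 717 of them in the table and 625 compared. The members and lists were chosen with earlier results of these data known. A few of these genes are not reported here. Promoters are RefSeq windows. Alternatives were other pseudocounts, filters, scalings and the naive T cell baseline. The correction for transcript length was added after the data were seen.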

Additional observations from a re-analysis of the deposited data

Results flagged for a closer look

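Ratios of Treg to un-injected had opposite signs in spleen and lymph node for 5 lists, at 1.5-fold or more in each tissue. The 10 genes below are those ranked highest for going opposite ways, 5 each way, out of the larger number that did. None of these differences between tissues was tested, since each group had 1 library. Cell cycle genes had a median of -0.83 in spleen and 0.84 in lymph node, and inflammatory monocyte genes -1.53 and 1.38. Neutrophil genes had -2.83 and 0.62, Fc receptors -0.94 and 0.97, and C-type lectin and endocytic receptors -0.67 and 0.85. The neutrophil median in lymph node rested on 9 of 20 genes, 4 at least 2-fold higher and 3 lower. In the Treg lymph node library 12 of the 20 were listed at 0. S100a8 and S100a9 were lower in lymph node too, at 2.22 and 11.0 FPKM without transfer and listed at 0 with Treg.

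Among genes lower in spleen and higher in lymph node, Siglech, the plasmacytoid lectin, had ratios of -1.60 and 2.52. Ly6c2, the monocyte surface protein, had -2.66 and 2.58, and Ms4a6d, a membrane protein of myeloid cells, -1.68 and 1.23. Fcor, a regulator of the transcription factor FOXO1 in adipocytes, had -2.73 and 2.53, and Mrpl22, a mitochondrial ribosomal protein, -1.75 and 1.39. Among genes higher in spleen and lower in lymph node, Gbp4, a guanylate-binding protein induced by interferon, had 0.92 and -1.45. Ube2e2, a ubiquitin-conjugating enzyme, had 0.97 and -2.35, Bzrap1 1.12 and -1.02, Tmem42 0.91 and -1.10 and Plekhn1 0.89 and -1.15.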

How the results depend on the processing

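No paired analysis was possible because each group had 1 library. Counts of genes at least 2-fold higher and lower moved by over 1.5 times under 3 settings. At 5 FPKM or more in either library they were 243 and 346 for Treg against un-injected, 164 and 195 for Treg against naive T cells in spleen, and 740 and 534 in lymph node. At 1 FPKM or more in both libraries they were 294 and 360, 203 and 223, and 788 and 581. With libraries scaled to equal sums they were 1268 and 388 for Treg against un-injected in spleen, and 604 genes were lower in lymph node. The same scaling changed the chemokine median from -1.25 to -0.88, proinflammatory cytokines from -0.80 to -0.44 and Fc receptors from -0.94 to -0.57. Type 1 dendritic cell genes went from -0.58 to -0.20 and immediate early factors from 0.74 to 1.12. With the naive T cell library as the baseline, 6 of the list medians past 2-fold turned from below to above 0, namely complement (0.045), neutrophils (0.42), inflammatory monocytes (0.54), macrophages (0.19), red blood cells and platelets (1.01) and mast cells, basophils and eosinophils (0.067). Another 10 list medians within 2-fold of un-injected changed sign too, among them type 1 dendritic cells (0.38) and C-type lectins (0.21). Of the named genes past 2-fold 24 turned, and 25 within 2-fold did. Of the 24, those that went to positive values were C1qc (0.46), Ccl6 (0.50), Ccl9 (0.58), Ccr3 (0.19), Cd14 (0.59), Cd207 (0.81), Cd8a (0.10), Chil3 (0.80), Clec4e (0.37), Cst3 (0.13), Cxcl2 (0.59), Hmox1 (0.17), Idh1 (0.34), Il1a (0.32), Laptm4b (0.13), Lyz2 (0.54), Mrc1 (0.025), Ngp (0.96), Siglech (2.65), Slc16a3 (0.14) and Tnfsf13 (1.97). Those that went to negative values were Bzrap1 (-0.77), Cd274 (-1.14) and Irf4 (-0.21). The cause was not tested. By filter and pseudocount, the neutrophil median of -2.83 went to -5.32 at 5 FPKM or more and to -3.49 and -2.21 at pseudocounts of 0.1 and 1. The natural killer and innate lymphoid median of -1.56 went to -2.66 at 5 FPKM or more, -0.33 at 1 FPKM or more in both libraries and -2.23 at a pseudocount of 0.1. The mast cell, basophil and eosinophil median of -1.67 went to -0.57, -0.90 and -2.97 under the same 3 settings, and the first 2 of these rest on very few genes. The settings for pseudocount, filter, scaling and transcript length turned no single gene past 2-fold. Depth limits low genes most, since 1 fragment per kilobase stood for about 0.461 FPKM without transfer and 0.543 FPKM with Treg.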

Other observations

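Growth factor receptor genes were near the un-injected level with Treg. Of 21 genes 1 was at least 2-fold higher and 0 lower, with a median of 0.23 to un-injected and 0.02 to naive T cells. The higher gene was Csf2ra, a chain of the receptor for GM-CSF, at 32.7, 62.8 and 95.6 FPKM, in the order un-injected, naive T cells and Treg. Among 20 heat shock and chaperone genes 2 were at least 2-fold lower, Hspa1a and Hspa1b, near-identical genes of inducible HSP70 whose reads may be split, at 1.35, 1.80 and 0.319 FPKM and 2.79, 1.59 and 0.694 FPKM. The list median was -0.29, and 0.08 with equal library sums. Among 19 STAT and SOCS genes 1 was at least 2-fold lower than in un-injected mice, Cish, which cytokines induce through STAT5, at 3.96, 4.81 and 1.65 FPKM, and the list median of -0.02 became 0.35 with equal library sums.

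Of 15 genes of the unfolded protein response 1 was at least 2-fold lower, Asns, the asparagine synthetase, at 1.15, 0.839 and 0 FPKM. Of 19 genes of cholesterol and lipid synthesis 1 was at least 2-fold lower, Fdps, an enzyme of the isoprenoid pathway, at 79.4, 39.3 and 32.7 FPKM. The medians of these lists were 0.05 and 0.09, the latter -0.20 with the trend over transcript length subtracted. Among 10 lipid mediator genes Ptgs1, the constitutive cyclooxygenase, was lower than in both other spleen libraries, at 5.30, 2.47 and 0.933 FPKM.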
